A study of Arabidopsis thaliana with 12 samples.

Results

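Transcripts of 18 genes of calcium signalling were followed in Arabidopsis thaliana roots, 11 IQD genes and 7 GLR genes. They were chosen by symbol, as genes alone on a probe set whose name in the platform annotation is 1 of 10 family prefixes followed directly by a number. The prefixes were IQD, CPK, CIPK, CBL, CNGC, GLR, ACA, CAX, ANN and ANNAT, and IQD and GLR were the 2 that gave a member, so calcium-dependent kinases, pumps, exchangers, annexins and cyclic nucleotide-gated channels were not analysed here. The 18 genes stand among 13356 with a probe set of their own, and each has 1 such probe set. A further 5 genes of the same families are written in another way there (iqd15, iqd21, iqd32, iqd33 and ATGLR1.2), and they are given beside the 18 and not counted with them.

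Root RNA was read on 12 arrays, 3 for each pairing of genotype and treatment, and the labels call the replicates biological. The wild type was Col-0 with aequorin, a calcium reporter protein, and the mutant was dorn1-1, which has an EMS-induced lesion in a lectin receptor kinase. The labels do not say whether the mutant carries aequorin. Each replicate was 1 pool of 120 seedlings, 5 days old, kept overnight in the dark in 2 mM MES with 10 mM CaCl2, and roots were harvested 30 min after ATP or MES buffer was given. The ATP dose is 100 mM in the sample titles and 100 µM in the treatment protocol, so it is not settled here.

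ATP released from damaged or stimulated plant cells acts as a signal outside the cell, and the receptor kinase affected in dorn1-1 binds it and raises cytosolic calcium. IQD proteins bind calmodulin, the main calcium sensor protein, through a domain of repeated IQ motifs, and many of them sit on microtubules, at the plasma membrane or in the nucleus, where they act as scaffolds. GLR proteins are plant relatives of animal glutamate receptors and form amino acid-gated cation channels that let calcium enter the cell. The first family thus stands downstream of a calcium rise and the second at its entry.

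All values are log2 values from RMA (robust multi-array average), in which 1 unit is a 2-fold difference. A probe set was called where limma, fitted to all 22746 probe sets, gave an adjusted p under 0.05. Array medians lay between 6.07 and 6.17. Of the 18 genes, 8 IQD and 2 GLR had a mean above the 40th percentile of all probe sets (5.32), and the other 8 were dimmer, where RMA compresses differences. Roots were cut from whole seedlings. As markers of green tissue, 5 photosynthesis genes of 18 listed were measured (RCA, PRK, PSAN, LHCB4.1 and LHCB4.2), with means over the 12 arrays of 9.49 to 11.9. Per array their joint mean ranged from 9.43 to 10.47 for the wild type under buffer and from 10.97 to 11.69 with ATP. For dorn1-1 it ranged from 8.81 to 11.92 under buffer and from 10.24 to 11.12 with ATP. It was 1.37 higher with ATP in the wild type (exact permutation p = 0.1, two-sided, the lower limit for groups of 3) and 0.40 higher in dorn1-1 (exact permutation p = 0.8, two-sided). Of 16 listed root genes 2 were measured, the root hair expansins EXPA7 and EXPA18, with means over the 12 arrays of 6.49 and 6.43. Their joint mean was 0.68 lower with ATP in the wild type (exact permutation p = 0.1, two-sided) and 0.36 lower in dorn1-1 (exact permutation p = 0.4, two-sided). In such pooled tissue, fewer cells of a type and less RNA per cell cannot be told apart.

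The wild-type response to ATP split the IQD genes. IQD22, IQD23 and IQD24 had higher means with ATP, by 1.59-fold to 1.90-fold, and the other 8 had lower means, by 1.12-fold to 1.72-fold, where 44.8% of all probe sets had an estimate above 0 and 55.2% below. None of the 11 passed in limma (lowest adjusted p = 0.0800), where 0.664% of all probe sets did, while 7 had an unadjusted p under 0.05. In 10 of the 11 the 3 ATP arrays lay wholly on one side of the 3 buffer arrays, 3 higher and 7 lower, where 13.9% and 19.2% of all probe sets did. At an unadjusted p under 0.05 there were 3 higher and 4 lower, against 9.8% and 12.4% of all probe sets. The IQD median log2 change was -0.22, and that of all probe sets was -0.03.

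Of the 3 genes with higher means, IQD23 had the smallest SE of its log2 change. IQD23 (AT5G62070) stood at 5.35, 5.61 and 5.24 under buffer (replicates 1 to 3) and at 6.13, 6.04 and 6.04 with ATP, a log2 change of 0.67 (SE 0.17, limma adjusted p = 0.0800). The ATP arrays lay close together and all above buffer. IQD22 (AT4G23060) stood at 7.18, 7.10 and 6.71 in buffer and at 8.03, 7.52 and 8.14 in ATP, a log2 change of 0.90 (SE 0.32, limma adjusted p = 0.144). IQD24 (AT5G07240), a dim probe set, stood at 4.06, 3.86 and 3.87 in buffer and at 5.17, 4.34 and 5.05 in ATP, a log2 change of 0.92 (SE 0.35, limma adjusted p = 0.161). For both, replicate 2 was the lowest of the ATP arrays, as it was for the mean of the photosynthesis genes. All the arrays with ATP lay above all those under buffer for each of the 3.

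IQD19 had the lowest mean with ATP relative to buffer. Its locus is AT4G14750, and its values were 5.86, 6.08 and 5.87 under buffer and 4.83, 5.23 and 5.41 with ATP, a log2 change of -0.78 (SE 0.20, limma adjusted p = 0.0823). The groups were fully apart. IQD18 stood at 5.28, 5.34 and 5.56 in buffer and at 4.64, 5.10 and 4.96 in ATP (log2 change -0.50, SE 0.18), and IQD28 at 6.58, 6.55 and 6.61 and at 6.15, 6.41 and 6.25 (log2 change -0.31, SE 0.11). IQD31 (AT1G74690) stood at 7.88, 7.92 and 7.92 in buffer and at 7.64, 7.39 and 7.61 in ATP (log2 change -0.36, SE 0.11). Each of these 3 had its ATP arrays below every buffer array, with limma adjusted p-values between 0.120 and 0.158. The log2 changes of IQD16, IQD26, IQD27 and IQD30 lay between -0.30 and -0.16. IQD26 stood at 5.50 ± 0.09 and 5.20 ± 0.06, IQD30 at 6.75 ± 0.09 and 6.53 ± 0.16, and the very dim IQD27 at 2.56 ± 0.10 and 2.40 ± 0.12 (SD, n = 3 each). IQD16, also known as ABS6, affects cell shape through the microtubules, and its means were 5.41 ± 0.03 and 5.25 ± 0.10 (SD, n = 3 each). Of these 4 genes, IQD30 alone had groups that overlapped.

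**Figure D1:**
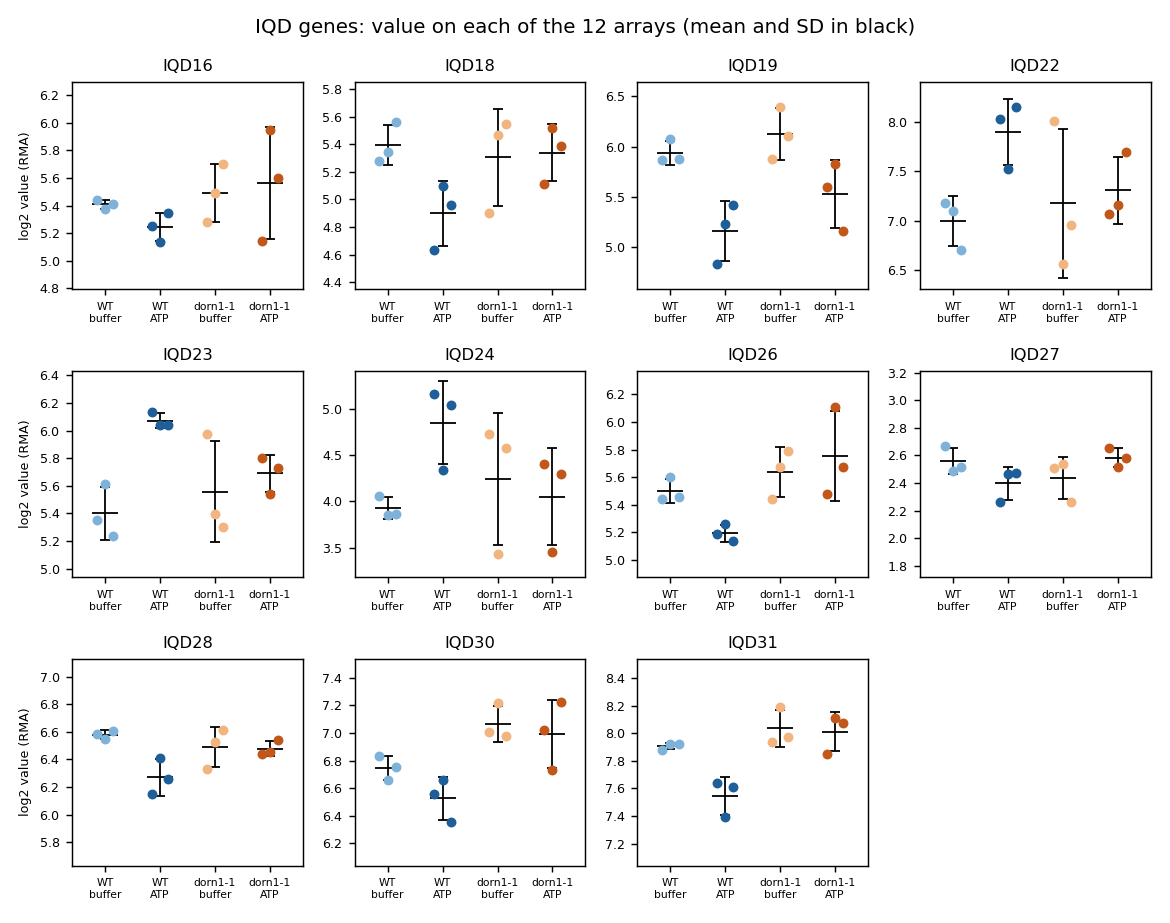
Log2 RMA value (vertical axis) of each of the 11 IQD genes on the 12 arrays, by genotype and treatment. Points are arrays, black bars the mean and SD of 3. IQD22, IQD23 and IQD24 lie higher in wild-type ATP than in wild-type buffer, and IQD19, at 4.83 to 5.41 in wild-type ATP, lies lower. The dorn1-1 buffer arrays spread most for IQD22, from 6.56 to 8.01.

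The IQD genes spelled otherwise also had means on both sides. For iqd32 the values were 8.20, 8.11 and 8.12 under buffer and 7.55, 7.66 and 7.54 with ATP, a log2 change of -0.56 (SE 0.11, limma adjusted p = 0.0551), the lowest adjusted p of the 15 IQD genes in this comparison. Both iqd15 and iqd33 had lower means in ATP (log2 changes of -0.31 and -0.39). The gene iqd21 had a higher one, at 5.34, 5.04 and 4.62 in buffer and at 6.32, 5.46 and 6.41 in ATP (log2 change 1.06, SE 0.54). In all 4 the groups were apart, with iqd21 spread most.

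Whether any IQD gene passed in the wild type depended on how the spread was estimated. IQD19, IQD22 and IQD23 passed in limma without dorn1-1 buffer replicate 1 (adjusted p of 0.0264, 0.0242 and 0.0105), and these 3 and IQD24 passed where the 6 wild-type arrays alone were in the fit (0.0240, 0.0262, 0.0177 and 0.0315). The estimates were the same in these fits, and the error was smaller. IQD22, for example, had an SE of 0.19 with the wild-type arrays alone. With array weights, which lower the weight of arrays that stand apart, 8 of the 11 passed, IQD22, IQD23 and IQD24 higher and IQD18, IQD19, IQD26, IQD28 and IQD31 lower (limma adjusted p between 0.00485 and 0.0300). More of the whole array passed in these fits too: 27.3% of all probe sets with array weights, 10.2% without dorn1-1 buffer replicate 1 and 11% with the wild-type arrays alone. Of the genes spelled otherwise, iqd32 passed in all 3 fits, iqd21 in all 3, and iqd15 and iqd33 with array weights.

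Over the 12 arrays, 6 of the 11 IQD genes were correlated with the mean of the 5 photosynthesis genes at an adjusted permutation p under 0.05. The relation was chosen for study after the data were seen. The permutations moved values freely between groups, so these p-values also take in differences between the groups. No p-value was computed with group means removed. The other 5 (IQD16, IQD26, IQD27, IQD30 and IQD31) had r between -0.56 and -0.18 and did not pass. Across the 12 arrays IQD22 followed the photosynthesis mean with Pearson r = 0.91 and Spearman rho = 0.83 (permutation p = 3e-05 and 0.00122, or 0.000345 and 0.00701 after Benjamini-Hochberg adjustment over 23 relations). IQD24 gave r = 0.85 and rho = 0.87 (adjusted permutation p = 0.00429 and 0.00483), and IQD23 r = 0.82 and rho = 0.76 (adjusted permutation p = 0.00575 and 0.0260). These 3 are the IQD members with the higher means in wild-type ATP. Without the 2 arrays farthest from the median photosynthesis mean, r was 0.88, 0.83 and 0.82 for IQD22, IQD24 and IQD23, and with each group mean removed it was 0.88, 0.85 and 0.74. The closest relation was that of iqd21, with r = 0.96 and rho = 0.97, each at the smallest permutation p that 100000 resamples can give (1e-05, or 0.00023 adjusted). In the other direction IQD18 gave r = -0.80, IQD28 r = -0.71 and IQD19 r = -0.68 (adjusted permutation p = 0.00902, 0.0314 and 0.0444), with rho of -0.85, -0.69 and -0.56 (adjusted permutation p = 0.00701, 0.0447 and 0.121). With group means removed these were -0.75, -0.54 and -0.54. Without the 2 farthest arrays they were -0.85, -0.80 and -0.54. Over all probe sets, 0.312% had an r at least as large in size as iqd21, 1.25% as IQD22, 4.09% as IQD24, 6.08% as IQD23, 7.67% as IQD18, 14.8% as IQD28 and 18.3% as IQD19, the weakest of the 6. With group means removed the shares were larger, at 0.444%, 2.96%, 5.29%, 14.8%, 14.2%, 37.2% and 37.3% in the same order. The part of green tissue in the IQD differences was not tested beyond these values. Of the 7 GLR genes none had an adjusted permutation p under 0.05 (r between -0.32 and 0.52).

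The dorn1-1 buffer arrays had the widest spread of photosynthesis means, at 11.92, 8.81 and 10.45 in replicates 1 to 3. IQD22 stood there at 8.01, 6.56 and 6.96 and IQD24 at 4.74, 3.42 and 4.58, both in the order of the photosynthesis mean. IQD23, at 5.97, 5.40 and 5.30, was highest in replicate 1 as well but lowest in replicate 3. IQD22 and IQD24 ranged more widely inside this untreated mutant group than their wild-type means differed. With the photosynthesis mean as a covariate, chosen with earlier results of these data known, the wild-type log2 change was 0.27 for IQD22 (SE 0.20), 0.26 for IQD24 (SE 0.23), 0.42 for IQD23 (SE 0.16) and -0.12 for iqd21 (SE 0.21). It was -0.55 for IQD19 (SE 0.21), -0.27 for IQD31 (SE 0.14), -0.45 for iqd32 (SE 0.13) and -0.21 for IQD18 (SE 0.17). For the wild-type response none of the 18 genes passed in limma in that fit, where 0.308% of all probe sets did. The IQD median there was -0.17.

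**Figure D2:**
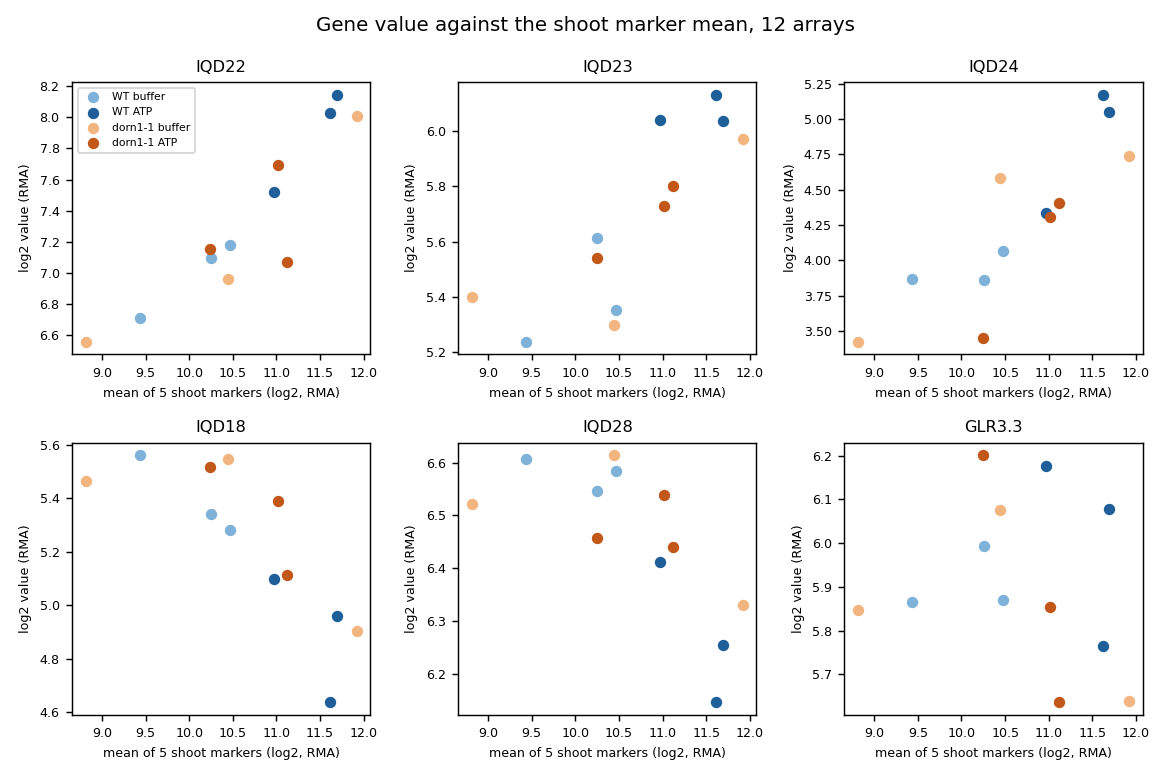
Log2 RMA value of IQD22, IQD23, IQD24, IQD18, IQD28 and GLR3.3 (vertical axes) against the mean log2 value of 5 photosynthesis genes (horizontal axes), 1 point per array, coloured by group. The first 3 genes go up along the axis (r = 0.91, 0.82 and 0.85), IQD18 and IQD28 go down (r = -0.80 and -0.71), and GLR3.3 has r = -0.20.

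The GLR genes gave smaller estimates in the wild type. Their log2 changes with ATP lay between -0.0023 and 0.25, with a median of 0.10 and 6 of 7 above 0 (7 after median centring), and 0 of 7 passed in limma or had an unadjusted p under 0.05 (5054 of all 22746 probe sets, or 22.2%, did). GLR3.3 (AT1G42540) and GLR3.6 (AT3G51480) are channels needed for wound-induced calcium signals between leaves. GLR3.3 stood at 5.87, 5.99 and 5.87 under buffer and at 5.77, 6.18 and 6.08 with ATP. GLR3.6 had means of 5.83 ± 0.09 and 5.82 ± 0.17 (SD, n = 3 each). The groups overlapped for both, and the 95% intervals of the log2 changes ran from -0.26 to 0.45 for GLR3.3 and from -0.32 to 0.31 for GLR3.6. A change of 2-fold in either direction thus lies outside both intervals. GLR2.7, GLR2.8 and GLR2.9, which take part in the calcium influx set off by microbial patterns, lie next to one another on chromosome 2, with 0 protein-coding genes between adjacent ones, and were all dim. GLR2.8 (AT2G29110), the GLR gene with the lowest unadjusted p (0.111), stood at 2.75, 2.55 and 2.42 under buffer and at 2.88, 2.72 and 2.88 with ATP. The groups overlapped for each of these 3 genes. In the order of their numbers, the log2 changes were 0.03 (SE 0.15), 0.25 (SE 0.15) and 0.02 (SE 0.10). GLR1.4, a methionine-gated channel when expressed in frog oocytes, was the 1 GLR gene whose groups were apart, at 4.34, 4.43 and 4.42 in buffer and at 4.50, 4.61 and 4.58 in ATP (log2 change 0.16, SE 0.13), where 13.9% of all probe sets were apart and higher. ATGLR1.2 had a log2 change of 0.25 (SE 0.15) with overlapping groups.

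**Figure D3:**
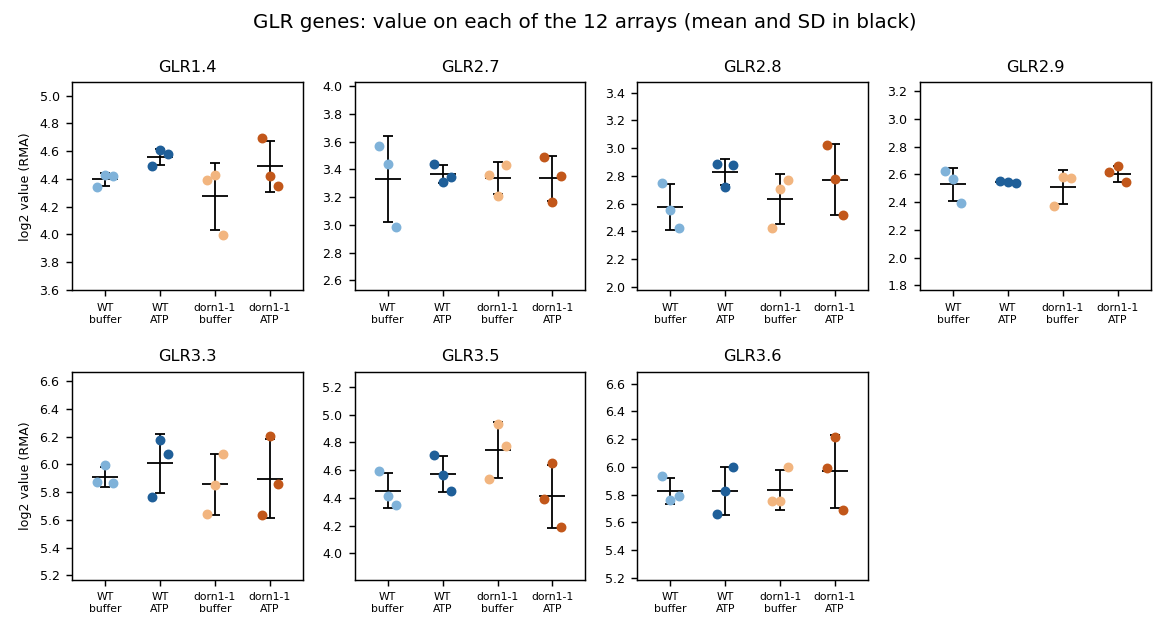
Log2 RMA value (vertical axis) of each of the 7 GLR genes on the 12 arrays, by genotype and treatment. Points are arrays, black bars the mean and SD of 3. Groups overlap for GLR3.3 and GLR3.6, and GLR3.5 is highest in dorn1-1 buffer, at 4.53 to 4.93.

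The same comparison was made in dorn1-1. None of the 18 genes passed in limma, and 0 of all 22746 probe sets did, while 2 of the 18 had an unadjusted p under 0.05, against 523 of all probe sets (2.3%). These 2 were IQD19 and GLR3.5, both with lower means in ATP, where 0.875% of all probe sets had such a p and a lower mean. IQD19 stood at 5.88, 6.39 and 6.10 under buffer and at 5.60, 5.83 and 5.16 with ATP, a log2 change of -0.59 (SE 0.20, limma adjusted p = 1.00). Its groups were apart here as in the wild type, the 1 member of 18 for which this held in the mutant. Of all 22746 probe sets, 843 were apart and higher in this comparison and 409 (1.8%) were apart and lower. GLR3.5 (AT2G32390), a channel studied in guard cells and germinating seeds, stood at 4.53, 4.93 and 4.77 in buffer and at 4.39, 4.65 and 4.19 in ATP (log2 change -0.34, SE 0.14), with groups that overlapped. IQD23 had a log2 change of 0.13 (SE 0.17), IQD22 of 0.13 (SE 0.32) and IQD24 of -0.20 (SE 0.35). The remaining IQD genes lay between -0.08 and 0.15. The signs of IQD22 and IQD24 turned when single dorn1-1 arrays were left out, with ranges of -0.18 to 0.54 and -0.61 to 0.11. Over the families the median log2 change was 0.04 for IQD and 0.10 for GLR, and 0.02 for all probe sets.

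**Figure D4:**
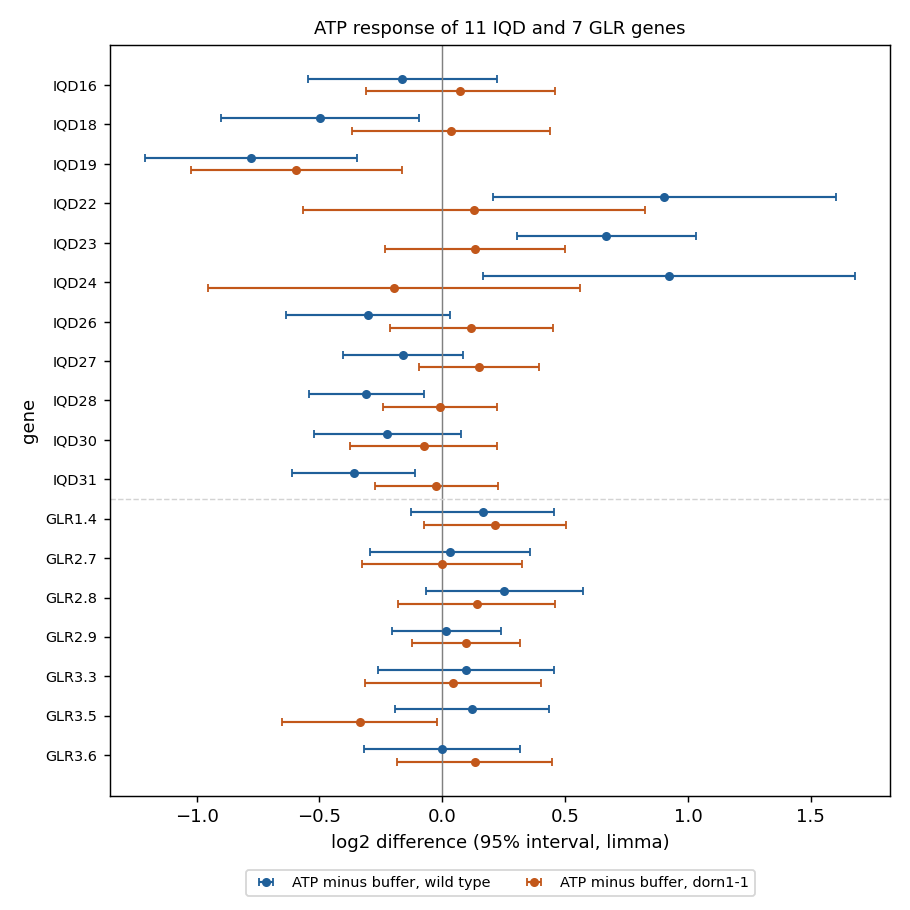
Log2 difference between ATP and buffer (horizontal axis, with 95% limma intervals) for 11 IQD and 7 GLR genes, in the wild type (blue) and in dorn1-1 (orange), from 3 arrays per group. IQD19 is below 0 in both genotypes (-0.78 and -0.59), and IQD22, IQD23 and IQD24 are above 0 in the wild type. The GLR intervals in the wild type all hold 0.

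Whether the responses differed was tested in the same fit, by subtracting the wild-type change from that in the mutant. No member passed in limma (lowest adjusted p = 0.712), and 2 of all probe sets did (0.00879%). At an unadjusted p under 0.05, 975 of all 22746 probe sets were higher in this contrast and 610 (2.68%) were lower. Of the 18 members 3 had such a p, all lower. They were IQD24 (log2 difference -1.12, SE 0.49), IQD23 (-0.54, SE 0.24) and GLR3.5 (-0.46, SE 0.20). The other way, 8 of 11 IQD genes had estimates above 0, as 59.1% of all probe sets did, with IQD18 at 0.53 (SE 0.26) and IQD31 at 0.34 (SE 0.16). For IQD19, the gene lower in ATP in both genotypes, the difference was 0.18 with a 95% interval from -0.42 to 0.79. An equal response thus does not lie outside it. The log2 change of IQD19 in dorn1-1 itself had a 95% interval from -1.02 to -0.16, not adjusted for the number of probe sets. Among the IQD genes spelled otherwise, iqd32 had a difference of 0.52 (SE 0.16, limma adjusted p = 0.672). The photosynthesis genes all had estimates below 0 in this contrast (median -0.73, SE 0.69 to 1.19), none with an unadjusted p under 0.05. With their mean as a covariate IQD24 had a difference of -0.65 (SE 0.29), IQD22 of -0.33 in place of -0.77, and IQD23 of -0.36 (SE 0.20). GLR3.5 moved the other way with the covariate, from -0.46 to -0.56 (SE 0.20).

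The genotypes were then compared within each treatment, on the same arrays as above. In buffer no member passed in limma (lowest adjusted p = 0.369). Over all probe sets 6 were called higher (0.0264%) and 9 lower (0.0396%), or 5 and 12 with median centring. IQD30 was the 1 member of 18 with an unadjusted p under 0.05, where 12.9% of all probe sets had one. It stood at 6.83, 6.66 and 6.75 in the wild type and at 7.01, 7.21 and 6.98 in dorn1-1 (log2 difference 0.32, SE 0.14), with all mutant arrays above the wild type. IQD31 was apart in the same way (log2 difference 0.13), so 2 of the 18 were apart and higher, against 8.19% of all probe sets. GLR3.5 had a log2 difference of 0.29 (SE 0.14), from 4.45 ± 0.13 to 4.75 ± 0.20 (SD, n = 3 each), with overlapping groups. The family medians were 0.14 for IQD and 0.0037 for GLR.

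In ATP, IQD31 was higher in dorn1-1 and was the 1 call among the 18 genes over the 5 comparisons. Its values were 7.64, 7.39 and 7.61 in the wild type and 7.85, 8.11 and 8.07 in dorn1-1, a 1.38-fold difference (log2 0.46, SE 0.11, limma adjusted p = 0.0338). All 3 mutant arrays lay above all 3 wild-type arrays. Over all probe sets 4.68% were called higher in this comparison and 2% lower, or 3.81% and 2.77% with cyclic loess scaling, so 1 of 18 is near the share of the whole array. The call was lost (limma adjusted p between 0.0509 and 0.136) without any 1 of the 3 wild-type buffer arrays, wild-type ATP replicates 2 or 3, or dorn1-1 ATP replicates 2 or 3. It was also lost with median centring (adjusted p = 0.0586), with cyclic loess (adjusted p = 0.0619), with the photosynthesis covariate (adjusted p = 0.0519) and where only the ATP arrays were in the fit.

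IQD26 (AT3G16490) was just over the threshold in the same comparison (limma adjusted p = 0.050003). It stood at 5.19, 5.26 and 5.14 in wild-type ATP and at 5.48, 6.11 and 5.67 in dorn1-1 ATP (log2 difference 0.56, SE 0.15). It passed without dim probe sets (limma adjusted p = 0.0385), without dorn1-1 buffer replicate 1 (adjusted p = 0.0279) and without dorn1-1 ATP replicate 1 (adjusted p = 0.0336). It also passed with array weights (limma adjusted p = 0.0147) and with the replicate block (adjusted p = 0.0317). IQD30 stood at 6.53 ± 0.16 and 6.99 ± 0.25 (SD, n = 3 each, log2 difference 0.46, SE 0.14, limma adjusted p = 0.0665). Both genes had all mutant arrays above the wild type. In all, 6 of 11 IQD genes were apart and higher in dorn1-1 and 1 was apart and lower, IQD23, where 17.1% and 9.89% of all probe sets were. By sign, 8 of 11 IQD estimates were above 0, as 52.6% of all were. The IQD median was 0.32, that of the 7 GLR genes -0.05 and that of all probe sets 0.01. IQD24 and IQD22 were lower in the mutant by 0.80 (SE 0.35) and 0.59 (SE 0.32) on the log2 scale, neither past the threshold. The 5 photosynthesis genes had lower means by 0.43 to 0.80 (SE 0.49 to 0.84), all with overlapping groups and none past the threshold. None of the 7 GLR genes had groups that were apart in either treatment, while ATGLR1.2 was apart and lower in ATP (log2 difference -0.39, SE 0.15).

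**Figure D5:**
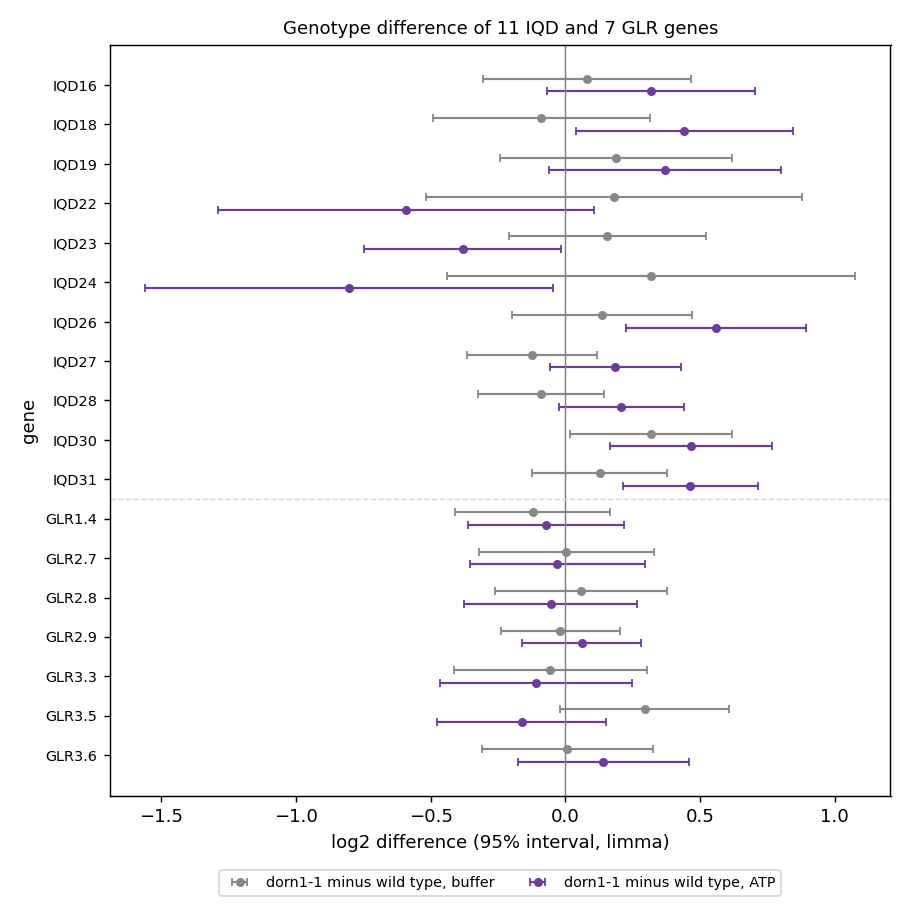
Log2 difference between dorn1-1 and the wild type (horizontal axis, with 95% limma intervals) for 11 IQD and 7 GLR genes, in buffer (grey) and in ATP (purple), from 3 arrays per group. In ATP, IQD31 (0.46), IQD26 (0.56), IQD30 (0.46) and IQD18 (0.44) have intervals above 0, and IQD23 (-0.38) and IQD24 (-0.80) have intervals below 0. In buffer, IQD30 (0.32) has an interval above 0. The GLR intervals hold 0 in both treatments.

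Other genes of calcium signalling were read from a list of 143 symbols, of which 9 were measured on a named probe set. In the wild type 1 of the 9 passed in limma, CML37, a calmodulin-like sensor (log2 change 1.28, SE 0.16, adjusted p = 0.00785), beside 0.664% of all probe sets. A further 3 had an unadjusted p under 0.05, where 22.2% of all probe sets had one, CML23 (0.69, SE 0.21) and CML30 (0.70, SE 0.29) with higher means, and CRT1B with a lower one. CRT1B, a calreticulin that buffers calcium in the endoplasmic reticulum, had means of 10.10 ± 0.15 and 9.16 ± 0.09 without and with ATP (SD, n = 3 each, limma adjusted p = 0.0521). Once the fit also took in each array's photosynthesis mean, the wild-type log2 change of CML30 was 0.12 (SE 0.18). Those of CML23, CML37 and CRT1B were then 0.87 (SE 0.23), 1.46 (SE 0.17) and -0.71 (SE 0.20). The cause of the lower CML30 value was not tested. In ATP, CRT1B was 2.13-fold higher in dorn1-1 (limma adjusted p = 0.0089), while CML37 and NCL, a sodium and calcium exchanger-like protein, were 2.54-fold and 1.37-fold lower (limma adjusted p of 0.00417 and 0.0321). These are 1 of 9 higher and 2 of 9 lower, beside 4.68% and 2% of all probe sets. None of the 9 passed in dorn1-1, in buffer or in the difference between responses. There 0, 0 and 3 respectively had an unadjusted p under 0.05. Of all probe sets, 2.3% had one in dorn1-1 and 12.9% in buffer. In the difference between responses 1 of the 9 was higher and 2 were lower, against 975 and 610 of all 22746 probe sets. The list median in the wild type was 0.24, beside -0.22 for IQD and 0.10 for GLR.

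The spread between replicates set what could be seen. The SD within a group had a median of 0.15 for both families (44 and 28 values), with maxima of 0.75 for IQD22 in dorn1-1 buffer and 0.31 for GLR2.7 in wild-type buffer. By group, the median SD over the members was 0.11 and 0.13 for the wild type without and with ATP, and 0.19 and 0.24 for dorn1-1.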

How the data were processed

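The files hold log2 expression values per probe set, which the authors obtained with RMA using affy, per the submitters' processing notes, and versions or joint processing of the arrays are not stated in those notes. RMA gives arrays a common distribution, so a shift common to most genes could not be detected. Groups came from the sample titles. Control probe sets (64) were dropped, and 22746 were fitted with limma 3.58.1 (R 4.3.3), all arrays sharing 1 spread, with Benjamini-Hochberg adjustment for each contrast. Values per array were compared by exact permutation (scipy 1.17.1), and correlations with 100000 permutations. The fit was tested on simulated data.

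Members needed exactly 1 gene in the platform annotation (13513 probe sets do), and RefSeq's TAIR10.1 gene table gave synonyms and neighbours. Every IQD gene and every member that passed was to be named, with the GLR genes of lowest unadjusted p in the wild-type response and the response difference, the 2 members of lowest p in the other contrasts, and the highest and lowest member by mean. Members and lists were chosen with earlier results of these data known. Related genes may share probes. The receptor gene was not analysed here.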

Additional observations from a re-analysis of the deposited data

How the results depend on the processing

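The count of the 18 genes called in the wild-type response was 0, and it was 8 with array weights, 2 with the replicate block, 4 with only the groups compared in the fit, and 0 to 3 when 1 array was left out, the 3 being without dorn1-1 buffer replicate 1. Over all probe sets the share called was 0.664%, and 27.3%, 1.97%, 11% and 10.2% in these 4 fits. In ATP between the genotypes it was 1, and it was 0 after median centring, with cyclic loess, with the photosynthesis covariate, with only the groups compared and at a minimum of 2-fold, 2 without dim probe sets, 3 with array weights, 3 with the replicate block and 0 to 2 without 1 array (6.68% of all probe sets, and 12.2%, 13.5% and 7.56% without dim probe sets, with weights and with the block). In buffer it was 0, and 1 with array weights (GLR3.5), when 11.3% of all probe sets were called. It stayed at 0 under every alternative run for the dorn1-1 response and the difference between responses. Counting the 5 genes spelled otherwise, tried only after seeing the data, changed no count in the fit the report uses, but iqd32 passed in the wild-type response under several alternatives, the replicate block and median centring among them. The cause was not tested, except that the 2-fold minimum excludes a 1.38-fold difference by construction and the two-group fit rests on 6 arrays. The replicate numbers were not taken as pairs, since the labels give no shared source. A correlation of deviations over 0.1 was found for 8 of 18 same-numbered pairs of arrays (range -0.28 to 0.56, median 0.03). It was found for 13 of 36 pairs with different numbers (range -0.58 to 0.44, median -0.08). The best partner in another group had the same number in 12 of 36 cases. The signs of the 3 higher and 8 lower IQD means in the wild type held under median, quantile and cyclic loess scaling and with the photosynthesis covariate, by count. For GLR, 1 sign turned under median centring (7 higher). The signs of GLR3.6 and GLR2.9 turned with cyclic loess (to 0.04 and -0.01). Those of GLR3.6 and GLR2.7 turned with the covariate (to 0.02 and -0.14). No detection call comes with the deposited values, so whether the 8 dim members were above background is not known, and 3 arrays per group limit the precision.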
